A study of Mus musculus with 3 samples.

Results

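Integrins and related adhesion molecules are the receptors by which T cells hold on to other cells and to the extracellular matrix. The list examined here held 34 genes, all measured, out of 19938 genes in the table. The list was chosen by symbol, with earlier results of these data known. It comprised 15 integrin alpha chains, 8 integrin beta chains, 4 immunoglobulin-family adhesion ligands (Icam1, Icam2, Vcam1 and Pecam1), Cd44 and Selplg, the cadherin gene Cdh17, the nectin-family receptor genes Cd226 and Cd96, and the plexin genes Plxnc1 and Plxnd1. The genes were measured in 3 cultures of mouse CD4 T cells, each on 1 single-colour Affymetrix array. Th17 cells were stimulated with IL-6 and TGFβ, Th22 cells with IL-6 alone, and Th0 cells without added cytokines. All 3 cultures were started from spleen cells of OT-II animals, B6.Cg-Tg(TcraTcrb)425Cbn/J, which carry a transgenic T cell receptor against ovalbumin, and were sorted as CD25-negative and CD44-low. All were activated with ovalbumin peptide on spleen antigen-presenting cells that lacked Il23a and had been depleted of T cells, and all were purified with magnetic beads after 60 hours. The labels used here state no age, sex or number of donor animals.

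An integrin is a pair of 1 alpha and 1 beta chain, and the pairing decides what it binds. The chains paired with Itgb2 are leukocyte receptors for ICAMs, those paired with Itgb1 mostly bind matrix proteins such as laminin, collagen and fibronectin, and Itgb7 pairs with Itga4 for homing to the gut and with Itgae for binding E-cadherin on epithelium. Signals from the T cell receptor and from chemokines switch integrins from a bent to an extended form through talin and kindlin, so the amount of mRNA does not by itself give the strength of adhesion.

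The deposited values were centred: each gene is given as its log2 difference from its own median over the 3 arrays, so 0 marks the middle array and no expression level is known. The log base was assumed to be 2, and a natural base would enlarge all folds. A gene with equal values on the 3 arrays may or may not have been detected. With 1 array per condition no test was possible, and no difference below has a replicate check. A difference was counted from 2-fold upwards. Quantile normalization, where named below, was applied to these centred values and not to expression levels. Separate probes of 1 gene, the only repeat measurement, differed in 95% of 999 genes by less than 0.36 log2 for Th17 minus Th22, 0.30 for Th22 minus Th0 and 0.39 for Th17 minus Th0. This probe spread was taken from the deposited values alone and not after quantile normalization. All members but Itgad rested on a single probe. Each array serves in 2 of the 3 comparisons, so the comparisons are not independent.

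Marker genes of cell types were compared between the arrays. Centred values cannot show whether a cell type was present, so this is no check of the labelled cell type. Of 9 measured T cell markers all lay within 2-fold on the 3 arrays, with medians of -0.24 for Th17 minus Th22, 0.13 for Th22 minus Th0 and 0.0010 log2 for Th17 minus Th0. Of 13 measured myeloid and dendritic cell markers, which include Itgam and Itgax, 9 were equal on all arrays and none passed 2-fold, as with 5 of 7 B cell, 4 of 4 platelet and 4 of 7 endothelial and stromal markers. Of 5 CD8 and NK cell markers Cd8b1 was lower in Th17 than in Th22 by 2.20-fold and than in Th0 by 2.61-fold, or by 1.61-fold and 1.96-fold after quantile normalization. Its partner chain gene Cd8a did not follow it, at 0.15 log2 for Th17 minus Th22 and -0.054 for Th17 minus Th0. Eomes was 1.73-fold lower in Th17 and in Th22 than in Th0, and Ncr1 and Klrb1c were equal on all arrays. Cd4 was at -0.38 on the Th17 array, 0.18 on the Th22 array and 0 on the Th0 array. Summed marker levels cannot be had from centred values, and the part of these markers in the differences below was not tested. On an array of many cells together, fewer cells of a type and less RNA per cell cannot be told apart.

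Across the list, 8 of 34 members were at least 2-fold apart between some pair of arrays: Itga3, Itgae, Itgb3, Cdh17, Cd226, Cd96, Plxnc1 and Plxnd1. Another 6 members (17.6%) were equal on all 3 arrays, against 37.7% of all genes, and the other 20 differed by less than 2-fold. The members were chosen with earlier results of these data known, so their shares beside those of all genes are no test of the list. In Th17 relative to Th22, 1 member was higher (2.94% of the list, against 1.10% of all genes) and 6 were lower (17.6%, against 1.5%). The lower members were 2 of the 23 integrin chains (8.70%) and 4 of the 11 other members (36.4%). In Th22 relative to Th0, 2 were higher (5.88%, against 0.547%) and 2 lower (5.88%, against 0.261%). After quantile normalization these were 4 and 3 members. Over all genes 150 were then higher and 158 lower in Th22 than in Th0, in place of 109 and 52. In Th17 relative to Th0, 1 was higher (2.94%, against 1.47%) and 4 were lower (11.8%, against 1.56%). The median difference was 0 log2 over the members and 0 log2 over all genes in each comparison. Of the 8 genes, 5 were highest on the Th0 array, 2 on the Th22 array and 1 on the Th17 array, while 4 were lowest on the Th17 array. The same split was not made for all genes past 2-fold, so it cannot be read as particular to the list.

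**Figure D1:**
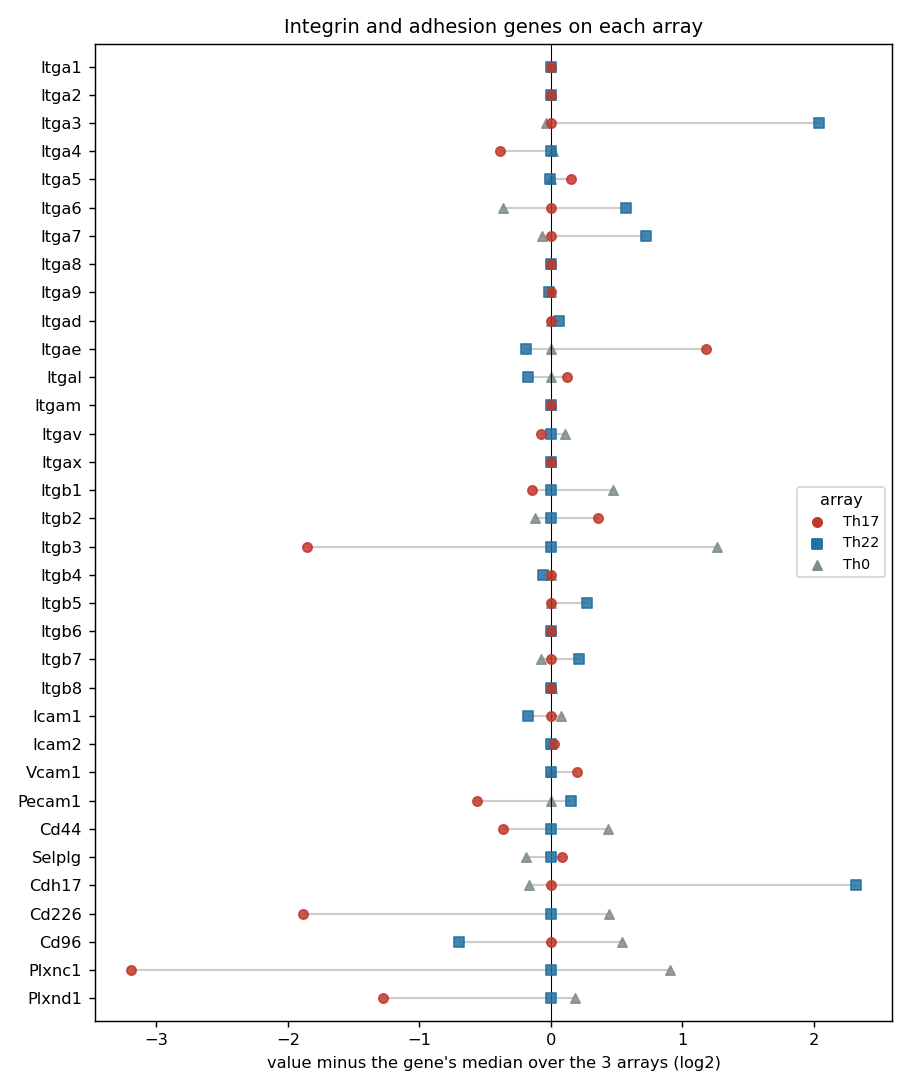
Value of each of the 34 genes on the Th17, Th22 and Th0 arrays, as the log2 difference from the gene's own median over the arrays, with 1 array per condition and a grey line over the range. Plxnc1, Cd226, Itgb3 and Plxnd1 extend to the left on the Th17 array, Itga3 and Cdh17 to the right on the Th22 array and Itgae to the right on the Th17 array.

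Counting smaller differences, beyond the spread between probes, gave 2 members higher and 10 lower in Th17 than in Th22, against 3.83% and 6.13% of all genes. In Th22 relative to Th0 it gave 4 higher and 6 lower (4.81% and 2.86% of all genes). In Th17 relative to Th0 it gave 2 higher, Itgae and Itgb2, and 9 lower (4.68% and 5.61% of all genes).

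Among the alpha chains, those that bind laminin were higher in Th22. Itga3, which pairs with Itgb1 as a receptor for epithelial laminins, was at 0 on the Th17 array, 2.04 on the Th22 array and -0.033 on the Th0 array. It stood out on the Th22 array alone, 4.12-fold lower in Th17 than in Th22 and 4.22-fold higher in Th22 than in Th0, the 20th largest such difference of all genes. Itga7, the laminin receptor chain best known from muscle, was at 0 on the Th17 array, 0.73 on the Th22 array and -0.068 on the Th0 array. Itga6, which pairs with Itgb1 or Itgb4, was at 0 on the Th17 array, 0.57 on the Th22 array and -0.36 on the Th0 array. All 3 laminin-binding chains were therefore highest on the Th22 array, and their differences for Th22 minus Th0 ran from 0.79 to 2.08 log2, beyond the probe spread. Itga6 (1.91-fold) and Itga7 (1.73-fold) stayed under 2-fold for Th22 against Th0, but passed it at 1.15 and 1.06 log2 when the arrays were quantile normalized.

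The other matrix-binding alpha chains differed little. The collagen receptor chains Itga1 and Itga2 were equal on all arrays. Of the chains that bind the RGD peptide of fibronectin and vitronectin, Itga8 was equal on all arrays, and Itga5 and Itgav differed by at most 0.19 log2 in any comparison. Itga4, which binds VCAM-1 and MAdCAM-1, was at -0.39 on the Th17 array, 0 on the Th22 array and 0.019 on the Th0 array. It was lowest in Th17 by a margin just beyond the probe spread. Quantile normalization gave smaller differences, -0.25 log2 for Th17 minus Th22 and -0.26 for Th17 minus Th0. Itga9, a close relative of Itga4, stayed within 0.016 log2.

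Among the leukocyte alpha chains only Itgae passed 2-fold. Itgae encodes CD103, which with Itgb7 holds T cells at epithelium by binding E-cadherin, and its gene is a known TGFβ target in T cells. It was at 1.18 on the Th17 array, -0.19 on the Th22 array and 0 on the Th0 array, so the Th17 array stood alone. The others differed by less than the probe spread, but by -0.39 log2 for Th22 minus Th0 after quantile normalization. Itgae was 2.59-fold higher in Th17 than in Th22 and 2.27-fold higher in Th17 than in Th0, and the difference from Th0 was 0.78 log2 after quantile normalization, under 2-fold. Itgal, the alpha chain of LFA-1, was at 0.13 on the Th17 array, -0.17 on the Th22 array and 0 on the Th0 array. Its 0.30 log2 for Th17 minus Th22 lay inside the probe spread, but was 0.46 log2 after quantile normalization. Itgam and Itgax, chains of myeloid cells, were equal on all arrays, and Itgad differed by 0.060 log2 at most.

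Of the 8 beta chains only Itgb3 passed 2-fold, and it did so in all 3 comparisons. Itgb3 pairs with Itgav as the vitronectin receptor, and with Itga2b on platelets. It was at -1.85 on the Th17 array, 0 on the Th22 array and 1.26 on the Th0 array, so the arrays were well separated in the order Th17, Th22, Th0. Itgb3 was 3.61-fold lower in Th17 than in Th22, 2.40-fold lower in Th22 than in Th0 and 8.68-fold lower in Th17 than in Th0, the 29th lowest difference of all genes in the last comparison. Quantile normalization gave -1.08 log2 for Th17 minus Th22 in place of -1.85. Itga2b and 3 other platelet markers were equal on all arrays.

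Itgb1, the partner of most matrix-binding alpha chains, was at -0.14 on the Th17 array, 0 on the Th22 array and 0.47 on the Th0 array. It was lower with either cytokine condition, with differences of -0.47 log2 for Th22 minus Th0 and -0.62 for Th17 minus Th0, beyond the probe spread. Itgb2, the shared beta chain of LFA-1 and its relatives, was at 0.36 on the Th17 array, 0 on the Th22 array and -0.12 on the Th0 array, 1.39-fold higher in Th17 than in Th0. Itgb7 was at 0 on the Th17 array, 0.21 on the Th22 array and -0.071 on the Th0 array, with all its differences inside the probe spread. Itgb5 differed by at most 0.27 log2, inside the probe spread, Itgb4 and Itgb8 differed by at most 0.062 log2, and Itgb6 was equal on all arrays.

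Read as pairs, the chains that differed most did so without their partners. For Th17 minus Th22, Itgae was 1.37 and its partner Itgb7 -0.21 log2. For Th22 minus Th0, Itga3 was 2.08 and its partner Itgb1 -0.47 log2, the opposite sign. For Th17 minus Th0, Itgb3 was -3.12 and its partner Itgav -0.19 log2. The chains of LFA-1 were at 0.30 log2 (Itgal) and 0.36 log2 (Itgb2) for Th17 minus Th22, both inside the probe spread.

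**Figure D2:**
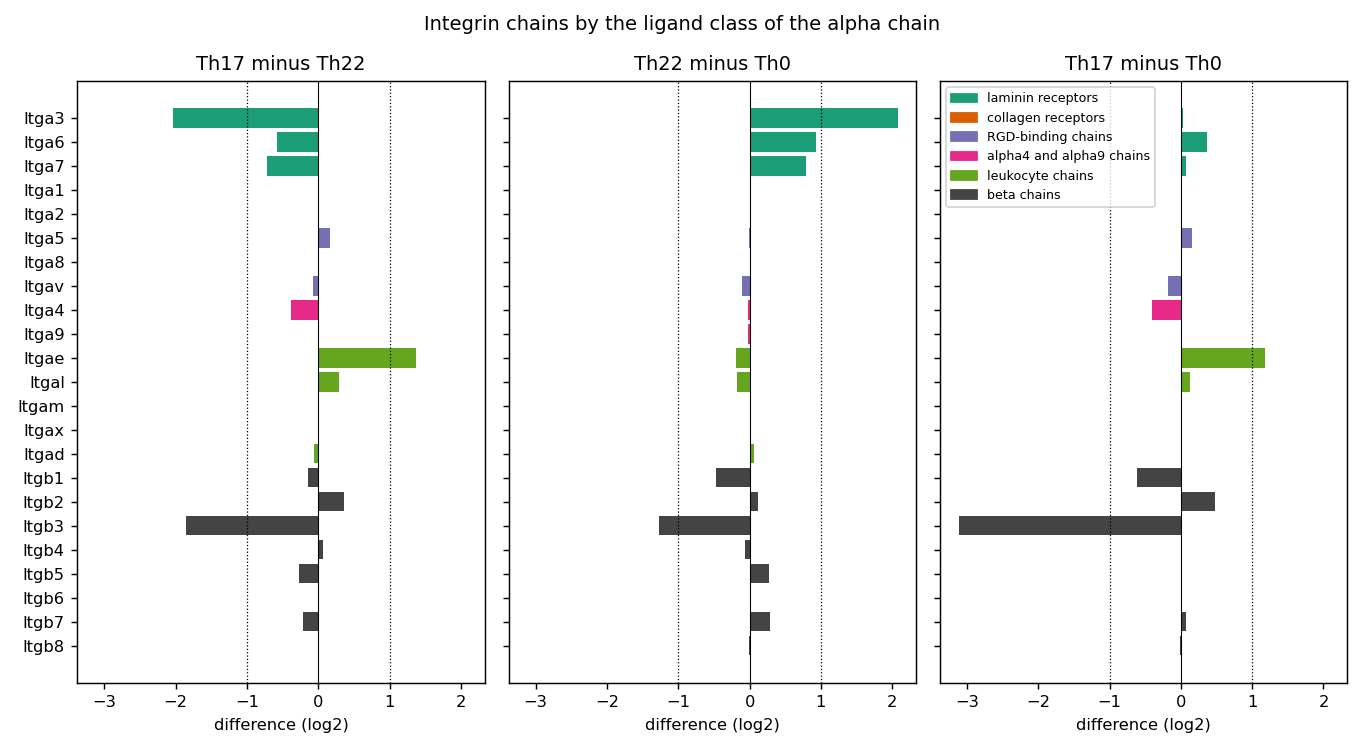
Log2 difference of each integrin chain for Th17 minus Th22, Th22 minus Th0 and Th17 minus Th0, from 1 array per condition, with alpha chains coloured by ligand class, beta chains in dark grey and dotted lines at 2-fold. The bars of the laminin-binding chains Itga3, Itga6 and Itga7 point left in the first panel and right in the second, Itgae passes 2-fold in the first and the last, and Itgb3 passes it in all 3.

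Cdh17 encodes a cadherin known from intestinal epithelium and B cells, which in cancer cells engages an integrin through an RGD motif. It was at 0 on the Th17 array, 2.32 on the Th22 array and -0.17 on the Th0 array. The Th22 array stood apart, as for Itga3, and the other arrays differed by less than the probe spread. Cdh17 was 5.01-fold lower in Th17 than in Th22 and 5.61-fold higher in Th22 than in Th0, the 11th largest difference of that comparison. No gene passed 2-fold among 13 other cadherin and catenin genes. Cdh1, which encodes the E-cadherin bound by CD103, was equal on all arrays, and the plakoglobin gene Jup was at 0 on the Th17 array, 0.72 on the Th22 array and -0.028 on the Th0 array.

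The ligands and hyaluronan and selectin receptors of the list all stayed within 2-fold. Cd44, the hyaluronan receptor that marks activated T cells and for which the starting cells had been sorted as low, was at -0.36 on the Th17 array, 0 on the Th22 array and 0.44 on the Th0 array. It was lowest in Th17, by 1.74-fold against Th0. Pecam1, which encodes the homophilic adhesion molecule CD31, was at -0.56 on the Th17 array, 0.16 on the Th22 array and 0 on the Th0 array, 1.64-fold lower in Th17 than in Th22. Icam1, the main ligand of LFA-1, differed by at most 0.26 log2, Vcam1 by 0.20 and Icam2 by 0.028, all inside the probe spread. After quantile normalization Icam1 was at -0.43 log2 for Th22 minus Th0. Selplg encodes PSGL-1, which binds selectins once it is decorated with suitable sugars, and it was 0.28 log2 higher in Th17 than in Th0, inside the probe spread.

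The nectin-family receptors Cd226 and Cd96 differed in opposite directions between Th17 and Th22. CD226 is an activating receptor for CD155 (Pvr) and CD112 (Nectin2), and CD96 and TIGIT compete for CD155. Cd226 was at -1.89 on the Th17 array, 0 on the Th22 array and 0.44 on the Th0 array, so it was low in Th17. It was 3.70-fold lower in Th17 than in Th22 and 5.02-fold lower in Th17 than in Th0, or -1.09 and -1.70 log2 after quantile normalization. Cd96 was at 0 on the Th17 array, -0.70 on the Th22 array and 0.54 on the Th0 array, with Th22 the lowest. The Th22 value lay 2.36-fold below that of Th0, or -2.58 log2 after quantile normalization. The Th17 value lay 1.62-fold above that of Th22, under 2-fold at 0.70 log2, but at 1.84 log2 after quantile normalization.

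Of 9 further nectins and their receptors 1 passed 2-fold, the inhibitory receptor gene Tigit, at -1.66 on the Th17 array, 0 on the Th22 array and 0.16 on the Th0 array. Tigit was 3.16-fold lower in Th17 than in Th22 and 3.52-fold lower in Th17 than in Th0 (2.0-fold and 2.24-fold after quantile normalization), the same order of arrays as Cd226. The ligand genes Pvr and Nectin2 differed by at most 0.42 and 0.26 log2.

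The plexins held the largest difference of the list. Plxnc1 encodes the receptor for the membrane semaphorin Sema7a, and was at -3.19 on the Th17 array, 0 on the Th22 array and 0.91 on the Th0 array. It was 9.14-fold lower in Th17 than in Th22, the 17th lowest of all genes, and 17.2-fold lower in Th17 than in Th0, the 11th lowest. Quantile normalization reduced these differences to 3.92-fold and 9.03-fold, and took Th22 minus Th0 from -0.91 to -1.20 log2, past 2-fold. Plxnd1, a receptor for Sema3e, was at -1.27 on the Th17 array, 0 on the Th22 array and 0.18 on the Th0 array. Its 2.42-fold lower value in Th17 than in Th22 and 2.75-fold lower value in Th17 than in Th0 both came under 2-fold after quantile normalization, at -0.78 and -0.97 log2.

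**Figure D3:**
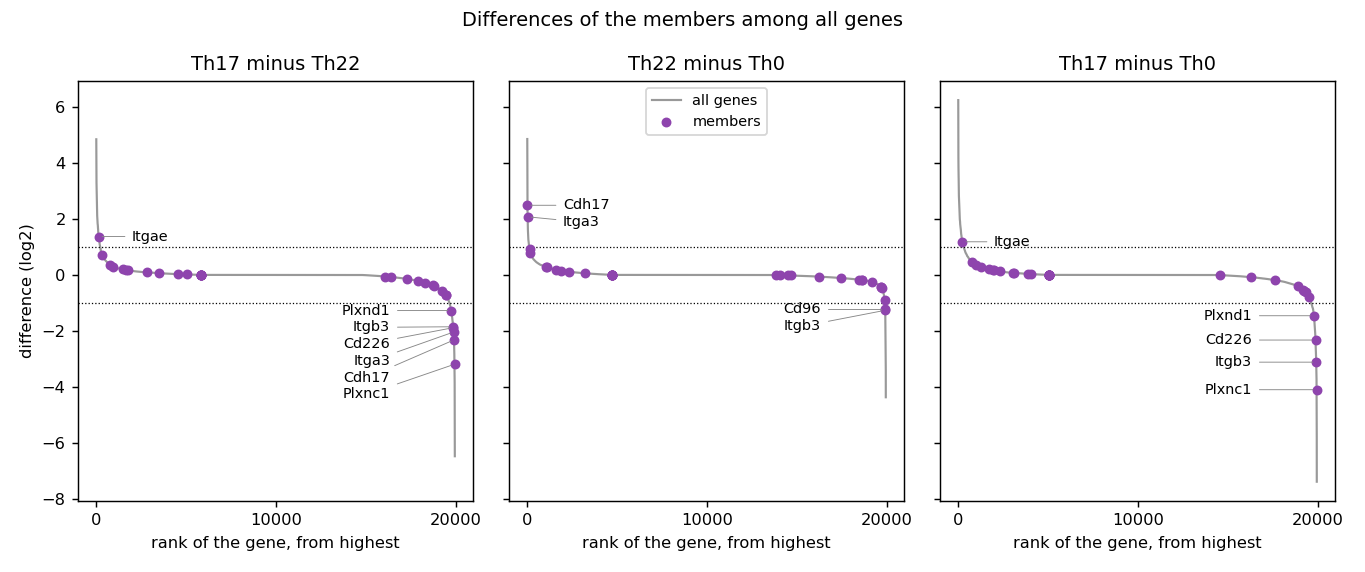
All 19938 genes ranked by their log2 difference in each comparison (grey line, highest first) with the 34 members as points, those at least 2-fold apart named and dotted lines at 2-fold, from 1 array per condition. In the first panel 6 members lie below the lower line and Itgae above the upper one, and in the second Cdh17 and Itga3 lie near the top.

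Promoter sequence was looked up for the genes past 2-fold, since they fell into groups that shared an order of the arrays. RefSeq promoter windows of build GRCm38.p6 were found for 20 of the 34 members (22 windows), among them Itga3, Cd96, Plxnc1 and Plxnd1. No window was found for Itgae, Itgb3, Cdh17 or Cd226, so these genes were not searched. The 250 bases before the start are shown, 5′ to 3′ in the gene's direction and in lower case, for 1 gene high in Th22, 1 low in Th22 and the pair of plexin genes low in Th17. Itga3 has 2 windows, and the one shown is the further upstream; the other held none of the motifs searched. Capitals mark letters that match 1 of 3 motifs searched on both strands, namely TTCNNNGAA for STAT factors, CAGAC for Smad proteins and TGANTCA for AP-1. The motifs were chosen after the values had been seen, because STAT3 acts downstream of IL-6 and Smad proteins downstream of TGFβ. None of the motifs' letters overlap each other in the windows shown.
Itga3 upstream promoter, chr11:95076715-95076964, - strand: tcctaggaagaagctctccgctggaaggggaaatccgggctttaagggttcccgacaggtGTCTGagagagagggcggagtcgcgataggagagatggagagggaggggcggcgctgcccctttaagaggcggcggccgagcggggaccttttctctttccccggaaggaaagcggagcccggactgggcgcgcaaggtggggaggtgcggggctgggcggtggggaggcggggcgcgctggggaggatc
Cd96 promoter, chr16:46120249-46120498, - strand: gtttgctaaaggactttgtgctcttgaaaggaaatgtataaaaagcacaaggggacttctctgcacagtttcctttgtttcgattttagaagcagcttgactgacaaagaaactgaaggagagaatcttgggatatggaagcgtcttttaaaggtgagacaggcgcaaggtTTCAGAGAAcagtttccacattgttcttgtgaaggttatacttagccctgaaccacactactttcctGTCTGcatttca
Plxnc1 promoter, chr10:94944846-94945095, - strand: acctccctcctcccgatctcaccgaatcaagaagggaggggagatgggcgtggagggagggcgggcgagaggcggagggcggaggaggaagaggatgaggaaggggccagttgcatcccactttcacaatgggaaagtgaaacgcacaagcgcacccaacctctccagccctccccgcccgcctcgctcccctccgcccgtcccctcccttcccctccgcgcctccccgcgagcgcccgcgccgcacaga
Plxnd1 promoter, chr6:115995006-115995255, - strand: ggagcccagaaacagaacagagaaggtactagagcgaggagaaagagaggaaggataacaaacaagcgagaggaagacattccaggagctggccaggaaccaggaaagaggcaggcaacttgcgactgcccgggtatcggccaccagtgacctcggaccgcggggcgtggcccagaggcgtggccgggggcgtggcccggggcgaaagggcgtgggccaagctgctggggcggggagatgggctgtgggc

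In the windows shown Itga3 had 1 Smad-motif match that began 190 bases before the start, and Cd96 had 1 STAT-motif match that began 79 bases and 1 Smad-motif match that began 12 bases before it, both Smad matches being on the reverse strand. The Plxnc1 and Plxnd1 windows held none of the 3 motifs. The STAT letters occurred in 2 of 22 member windows (9.09%), against 7.02% of all 32851 windows of the same length, the Smad letters in 10 of 22 (45.5%, against 42.2%) and the AP-1 letters in 1 of 22 (4.55%, against 6.75%). The shares in member windows, which include windows of members within 2-fold, were near those of all windows. A match describes the letters alone, and says nothing of binding.

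The genes that act with the members were followed in lists of their own. Their counts stand beside these shares of all genes past 2-fold. For Th17 against Th22, 1.10% were higher and 1.5% lower. For Th22 against Th0 the shares were 0.547% and 0.261%, and for Th17 against Th0 1.47% and 1.56%. Among 48 measured genes of integrin activation and its link to actin, none was at least 2-fold higher and 1 was lower in Th17 than in Th22, none passed 2-fold in Th22 against Th0, and none was higher and 1 lower in Th17 than in Th0. The lower genes were Sipa1l1, of a family that inactivates the small GTPase Rap1 (2.79-fold lower in Th17 than in Th22), and Rasgrp1, an exchange factor of Ras switched on by diacylglycerol (2.02-fold lower in Th17 than in Th0 as deposited, 1.63-fold after quantile normalization). The core activators differed little: talin (Tln1) by at most 0.24 log2, kindlin-3 (Fermt3) by 0.34, Rap1a by 0.30 and Rap1b by 0.29. The adaptor gene Fyb, which couples the T cell receptor to integrins, was at -0.80 on the Th17 array, 0 on the Th22 array and 0.12 on the Th0 array. Flna, Ptk2b and Pxn went the other way, 0.66, 0.61 and 0.60 log2 higher in Th17 than in Th0. By any amount 26 genes of this list were higher and 12 lower in Th17 than in Th22, and 18 higher and 14 lower in Th17 than in Th0. Among all 19938 genes, a difference of 0 ranked 5828th from the highest and 5238th from the lowest for Th17 minus Th22. For Th17 minus Th0 those ranks were 5028 and 5600. The list's medians were only 0.022 and 0 log2 in these comparisons, and these counts include differences inside the probe spread.

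Of 20 measured genes of selectins, their ligands and glycan enzymes, 3 were higher and none lower in Th17 than in Th0, 1 was higher and none lower in Th22 than in Th0, and 1 was higher and none lower in Th17 than in Th22. The 3 higher in Th17 than in Th0 were enzymes of glycan synthesis, Gcnt1, Fut7 and B4galt1, and of these only Gcnt1 stayed past 2-fold after quantile normalization, at 3.44-fold. Gcnt1, which makes the core-2 branch, was at 0.65 on the Th17 array, 0 on the Th22 array and -1.20 on the Th0 array, 3.61-fold higher in Th17 than in Th0 and 2.30-fold higher in Th22 than in Th0. Fut7, the fucosyltransferase of sialyl Lewis X, was 2.12-fold higher in Th17 than in Th0 with the same order of arrays, and was 0.99 log2 after quantile normalization. B4galt1, a galactosyltransferase, was 2.28-fold higher in Th17 than in Th0 and 2.22-fold higher in Th17 than in Th22, but 0.82 and 0.76 log2 after quantile normalization. The sialyltransferase gene St3gal6 went the other way, 1.95-fold lower in Th17 than in Th22, and its Th17 value lay 1.66-fold below that of Th0. Fut4 and C1galt1c1 were equal in Th17 and Th0. The list's medians were 0.041, 0.019 and 0.039 log2 for Th17 minus Th0, Th22 minus Th0 and Th17 minus Th22.

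Of 29 semaphorins, other plexins and neuropilins, 2 were higher and 2 lower in Th17 than in Th0, none passed 2-fold in Th22 against Th0, and 1 was higher and 1 lower in Th17 than in Th22. Sema7a, the ligand of Plxnc1, was at 0.62 on the Th17 array, 0 on the Th22 array and -0.56 on the Th0 array, 2.27-fold higher in Th17 than in Th0. Its order of arrays was thus the reverse of that of its receptor gene. Sema6d, a ligand of A-type plexins, was at 2.35 on the Th17 array, -0.26 on the Th22 array and 0 on the Th0 array, 6.11-fold higher in Th17 than in Th22 and 5.12-fold higher in Th17 than in Th0, or 4.72-fold and 3.02-fold after quantile normalization. Sema4c was 2.53-fold lower in Th17 than in Th22, or -0.82 log2 after quantile normalization, and lay 3.42-fold below its Th0 value. Sema4b in Th17 lay 2.09-fold below its Th0 value. Sema3e, the ligand of Plxnd1, differed by at most 0.032 log2.

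Among 26 other immunoglobulin-family adhesion genes, none was higher and 4 were lower in Th17 than in Th22, against 1.10% and 1.5% of all genes. None passed 2-fold in Th22 against Th0. In Th17 relative to Th0 none was higher and 2 were lower, against 1.47% and 1.56% of all genes. Slamf7, a homophilic receptor of the SLAM family, was 7.39-fold lower in Th17 than in Th22 and 5.75-fold lower in Th17 than in Th0, or 3.73-fold and 2.78-fold after quantile normalization. Its relatives Slamf1 and Slamf6 were 2.77-fold and 2.30-fold lower in Th17 than in Th22, Slamf6 being 1.89-fold lower after quantile normalization. Alcam, which encodes the ligand of CD6, was 3.71-fold lower in Th17 than in Th22, with a like difference from Th0, of 3.72-fold, and both were 2.14-fold after quantile normalization. Cd6 itself was 1.51-fold lower in Th17 than in Th22.

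Matrix genes and tetraspanins, the membrane proteins that gather integrins into clusters, gave a few differences in both directions. Of 29 matrix ligands and CD44 partners, 1 was higher and 1 lower in Th17 than in Th22, namely the thrombospondin gene Thbs1 (2.80-fold, and 1.98-fold after quantile normalization) and the metalloprotease gene Adam8 (2.58-fold), none passed 2-fold in Th22 against Th0, and Thbs1 was 3.08-fold higher in Th17 than in Th0. The laminin chain gene Lama5 was at -0.54 on the Th17 array, 0.45 on the Th22 array and 0 on the Th0 array, and Lama1, Lama2, Lama4 and Lamb1 were equal on all arrays. Of 17 tetraspanins 1 was higher and 2 were lower in Th17 than in Th22, none passed 2-fold in Th22 against Th0, and none was higher and 2 were lower in Th17 than in Th0. Tspan2 was 2.22-fold higher, Cd9 2.50-fold lower and Tspan4 2.29-fold lower in Th17 than in Th22. Against Th0 the lower genes in Th17 were again Cd9 (2.62-fold) and Tspan4 (2.21-fold). Both came under 2-fold in both comparisons after quantile normalization, Cd9 at -0.80 and -0.86 log2 and Tspan4 at -0.77 and -0.70 log2. Among 7 other integrin genes none passed 2-fold and 5 were equal on all arrays.

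**Figure D4:**
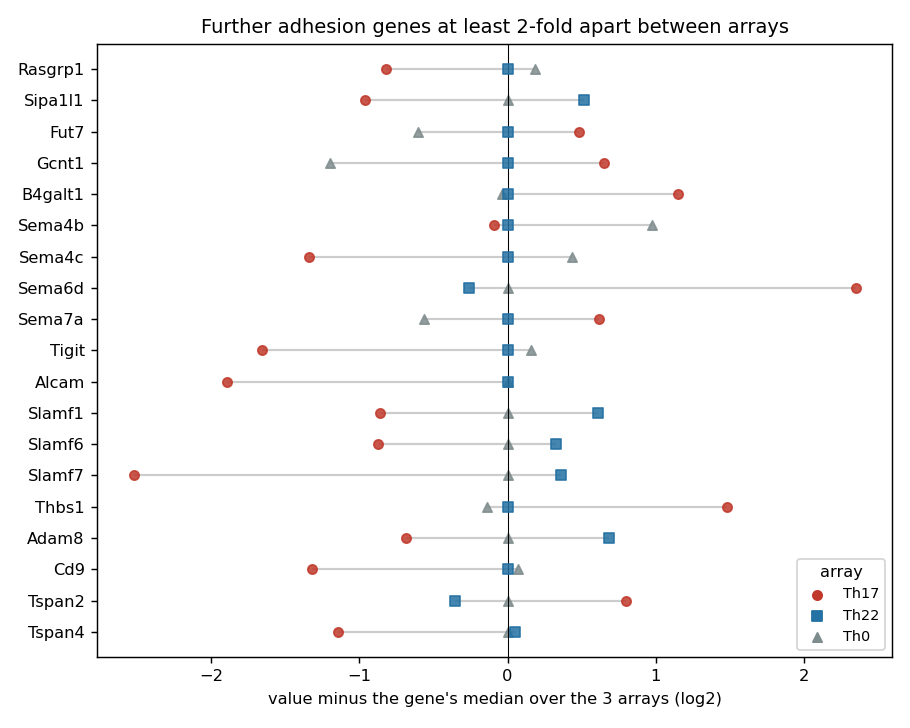
Value on the Th17, Th22 and Th0 arrays of each further adhesion gene at least 2-fold apart between some pair of arrays, as the log2 difference from the gene's own median, with 1 array per condition. Gcnt1, Fut7 and Sema7a lie highest on the Th17 array and lowest on the Th0 array, while Slamf7, Alcam and Tigit extend to the left on the Th17 array.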

How the data were processed

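The deposited values were taken as log2 and, per the labels, came from 3 samples on single-colour, biotin-labelled Affymetrix arrays, which were grouped by the T-helper subset of their labels. No probe summary, normalization, software, log base, direction or genome build is stated in the labels, and higher values were read as more RNA. That the values are centred was seen from all 28853 probes having an across-array median of exactly 0. Gene names came from the platform annotation, with 21698 of the 21789 single-symbol probes updated through their Entrez identifier to a RefSeq gene table of GRCm38.p6. The 1621 probes with several symbols and the 5443 without one were left out. Each gene was the mean of its probes, and differences between arrays were taken with Python 3.11.15, pandas 2.3.3 and numpy 2.4.6. Signal over background is unknown for centred values, and precision is limited by having 3 arrays.

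The members and lists were chosen with earlier results of these data known. Every member is accounted for, those past 2-fold are given on each array, and genes of further lists are named where past 2-fold, up to 6 per list. Some partners within 2-fold, named for their role, were added after their values were seen. The alternatives were quantile normalization of the centred values, the most different probe of a gene and probes with several symbols. The others were a shift by the median of non-zero differences, a 1.5-fold threshold and natural logs.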

Additional observations from a re-analysis of the deposited data

How the results depend on the processing

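Of the 34 genes, none past 2-fold changed sign under any of the 6 alternatives. Quantile normalization, which forces equal spread on the arrays, gave 2 members higher in Th17 than in Th22, 4 higher in Th22 than in Th0 and 0 higher in Th17 than in Th0, in place of 1, 2 and 1. The members lower in these comparisons were 5, 3 and 3 in place of 6, 2 and 4. Over all genes 197, 150 and 202 were higher, in place of 220, 109 and 293. The genes lower were 202, 158 and 218, in place of 300, 52 and 311. A 1.5-fold threshold gave 2 members higher in Th17 than in Th22, 4 higher in Th22 than in Th0 and 1 higher in Th17 than in Th0. The members lower at that threshold were 8, 3 and 6. Over all genes this threshold gave 422 higher and 671 lower in Th17 than in Th22. It gave 319 higher and 161 lower in Th22 than in Th0, and 595 higher and 665 lower in Th17 than in Th0. Natural logs gave 2, 4 and 1 members higher and 8, 3 and 5 lower in the same comparisons. Over all genes they gave 340 higher and 519 lower, 233 and 110, and 490 and 531. The other 3 alternatives (the most different probe, probes with several symbols, and the shift, of 0.015 log2 at most) changed no call of a member. Quantile normalization acted on the centred values, so by construction it makes the differences from the median spread alike on the 3 arrays. Which values lie nearer to the true differences was not tested. The lower threshold and the natural log each widen what is counted by construction. No paired analysis was possible because each condition had 1 array. Depth and signal over background are unknown, so a gene equal on all arrays may be unexpressed.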

Other observations

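Some members are neighbours in the RefSeq gene table. Itga1 and Itga2 have no coding gene between them, and both were equal on all 3 arrays. Itgam, Itgax and Itgad likewise lie side by side, and none of them differed by more than 0.060 log2. Itgal, on the same chromosome with 35 coding genes between it and Itgam, was at 0.30 log2 for Th17 minus Th22, inside the spread between probes. Icam2 and Pecam1 have only Ern1 and Tex2 between them. Icam2 differed by at most 0.028 log2, and Pecam1 was 0.72 log2 lower in Th17 than in Th22 (difference of -0.72).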
